A study of Mus musculus with 24 samples.

Results

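Immediate early genes outside the AP-1 family were followed in the dorsal root ganglia of mice whose sciatic nerve had been crushed. These ganglia lie along the spinal cord and hold the cell bodies of sensory neurons with their glia. The 9 genes named for this were Egr1, Egr3, Nr4a1, Nr4a2, Nr4a3, Arc, Ier2, Dusp1 and Btg2, and every transcript that the deposited table gives one of these symbols was taken. This found 7 of the 9 genes in 8 transcripts, of 14066 symbols and 19571 transcripts in all. Nr4a3 and Arc were not analysed here. The transcripts were taken by name with no threshold on a measured value, but the genes were named with earlier results of these data known.

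Per the labels, mice of strain C57B/L6 aged 12 weeks received an intraperitoneal injection 30 min after the crush, either camptothecin at 2 mg/kg or its vehicle. Their ganglia were collected 18, 24 or 36 h after injury. All groups carry the crush, and no uninjured ganglia are among them. Columns of 19 libraries were used, which were 3, 4 and 3 from camptothecin ganglia and 3, 3 and 3 from vehicle ganglia at 18, 24 and 36 h, and the other 5 of the 24 labelled samples were not analysed here. Camptothecin blocks DNA topoisomerase I, an enzyme that relaxes DNA ahead of RNA polymerase, so the design asks how the response to injury differs under that drug and how it moves between 18 and 36 h.

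Immediate early genes are those a cell can transcribe within minutes of a stimulus without making new protein, because the factors that switch them on, serum response factor and CREB among them, are already bound or waiting. Their transcripts are short-lived, so their level follows recent activity. In neurons they answer calcium entry, growth factors and injury. EGR1 and EGR3 are zinc finger transcription factors. NR4A1 and NR4A2 are nuclear receptors that act without a known hormone. DUSP1 is a phosphatase that switches MAP kinases off again, BTG2 restrains proliferation and brings deadenylases to mRNA, and IER2 is a small nuclear protein of the same early response.

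The proximal promoters of 4 of these genes are shown, since the CREB element is among those that tie such genes to calcium and cAMP signals. They are from RefSeq, build GRCm38.p6, and run 5′ to 3′ on the strand of the gene up to its first annotated exon. Capitals mark TGACG, the core of the CREB element, or its reverse complement. The windows lie at chr15:101266596-101266845 on the plus strand for Nr4a1, and on the minus strand at chr2:57124004-57124253 for Nr4a2, chr17:26508520-26508722 for Dusp1 and chr1:134079121-134079405 for Btg2.
Nr4a1: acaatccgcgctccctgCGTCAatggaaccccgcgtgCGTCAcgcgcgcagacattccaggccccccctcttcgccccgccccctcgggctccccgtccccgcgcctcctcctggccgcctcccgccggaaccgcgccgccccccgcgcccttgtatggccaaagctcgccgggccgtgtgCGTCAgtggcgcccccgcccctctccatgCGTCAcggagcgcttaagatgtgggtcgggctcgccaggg
Nr4a2: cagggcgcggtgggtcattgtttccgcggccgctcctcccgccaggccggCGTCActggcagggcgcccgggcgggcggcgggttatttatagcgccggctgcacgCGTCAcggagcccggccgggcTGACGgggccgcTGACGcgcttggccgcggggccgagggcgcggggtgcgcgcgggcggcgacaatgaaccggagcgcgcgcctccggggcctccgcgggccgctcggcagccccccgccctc
Dusp1: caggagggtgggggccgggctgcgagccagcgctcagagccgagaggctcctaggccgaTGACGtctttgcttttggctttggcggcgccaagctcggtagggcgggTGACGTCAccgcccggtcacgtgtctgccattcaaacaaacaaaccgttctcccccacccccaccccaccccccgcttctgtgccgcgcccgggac
Btg2: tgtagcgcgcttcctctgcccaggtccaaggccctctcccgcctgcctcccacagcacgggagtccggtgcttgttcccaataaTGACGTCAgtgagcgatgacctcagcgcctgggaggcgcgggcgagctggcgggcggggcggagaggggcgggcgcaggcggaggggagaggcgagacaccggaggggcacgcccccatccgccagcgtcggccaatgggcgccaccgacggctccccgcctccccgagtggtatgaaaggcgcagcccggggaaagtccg
TGACG on either strand occurred 4 times in the Nr4a1 window, 4 times in that of Nr4a2, 3 times in that of Dusp1 and 2 times in that of Btg2. Over all 32851 RefSeq windows from 250 bases before to 50 bases after a start, 20.8% held it at least once. The full palindrome TGACGTCA, which counts as TGACG on both strands, stood 89 to 96 bases before the first annotated exon of Dusp1 and 194 to 201 bases before that of Btg2, counted on the printed stretches, and 1.79% of all windows held it. The GC box GGGCGG, on either strand, was found in all 4 windows and in 35.7% of the whole set. The CArG box, the element of serum response factor, was found in none of the 4 windows and in 1.63% of all. The promoters of Egr1, Egr3 and Ier2 were not searched here, so this absence covers only the 4 genes shown. These matches describe letters and do not show binding.

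What was counted differs between the genes. Each row of the table is 1 Ensembl transcript, named here as in GENCODE M21 on mm10. Egr1-201 (ENSMUST00000064795) lies at chr18:34859823-34864984 with 2 exons, Egr3-201 (ENSMUST00000035908) at chr14:70077203-70079955 with 3 exons and Nr4a1-201 (ENSMUST00000023779) at chr15:101266846-101274795 with 7 exons, all on the plus strand. Ier2-201 (ENSMUST00000060427) lies on the minus strand at chr8:84661331-84662852 with 1 exon, and Btg2-201 (ENSMUST00000020692) at chr1:134075170-134079120 with 2 exons. These 5 transcripts are annotated as protein coding.

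The rows for Dusp1 and Nr4a2 are not coding transcripts. Dusp1-203 (ENSMUST00000126178, chr17:26505591-26508474, 3 exons) and Dusp1-204 (ENSMUST00000146077, chr17:26506516-26507723, 2 exons) are annotated as retained-intron transcripts on the minus strand. Of their exonic bases, 369 of 2313 in Dusp1-203 and 338 of 839 in Dusp1-204 lie outside the exons of the coding Dusp1 transcripts, which is 16.0% and 40.3%. Nr4a2-205 (ENSMUST00000140165, chr2:57112003-57115038, 3 exons, minus strand) is annotated as a processed transcript, with 217 of 1099 bases (19.7%) outside the coding exons, and it begins at another start site than the promoter window shown above. The coding transcripts of both genes were not analysed here. Reads from exons shared between isoforms cannot be assigned with certainty, so a value for Dusp1 or Nr4a2 is a value for that annotated transcript and not for the coding mRNA. Exons of other genes overlapped none of the 8 transcripts.

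**Figure D1:**
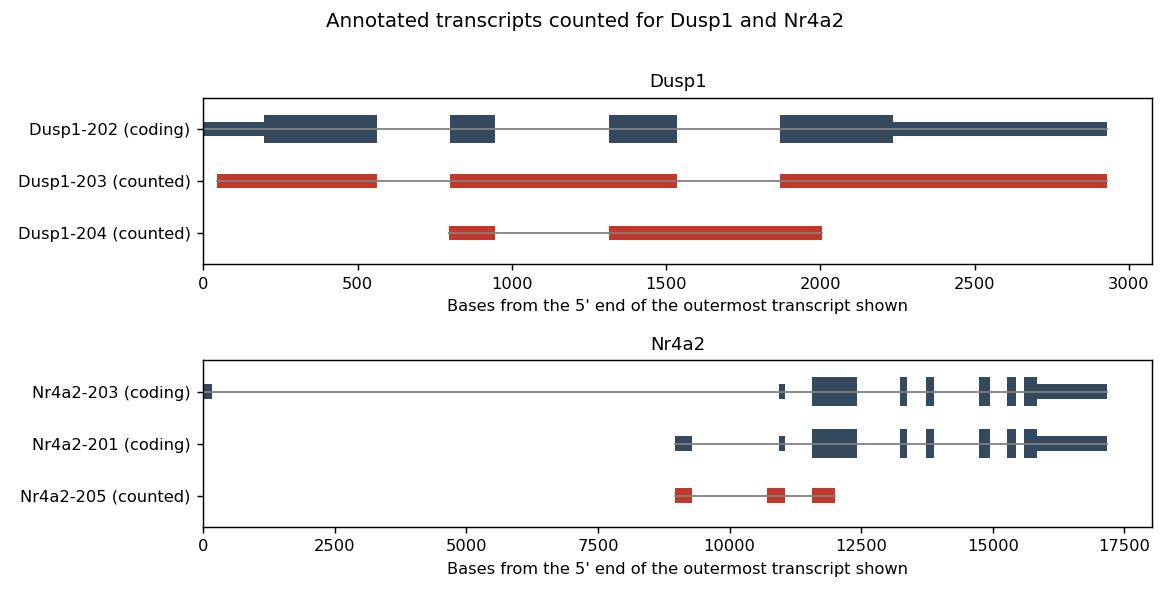
Exons of the counted transcripts of Dusp1 and Nr4a2 (red) below coding transcripts of the same genes (dark; tall boxes are coding sequence), drawn to scale in bases from the 5′ end of the outermost transcript. Dusp1-203 spans the 4 exons of Dusp1-202 with the intron between the second and the third kept, Dusp1-204 runs from the second exon into the fourth with the intron between the third and the fourth kept, and Nr4a2-205 covers the 5′ part from the inner start site.

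Library totals were 6.64 to 10.1, 8.44 to 15 and 9.32 to 10.4 M counts (M for mega) in camptothecin ganglia and 3.62 to 4.38, 6.08 to 8.32 and 3.71 to 5.75 M counts in vehicle ganglia at 18, 24 and 36 h. At each time the deepest vehicle library had fewer counts than the shallowest camptothecin library. Levels are given as CPM, the counts per M counts of a library, after scaling of the libraries by TMM. Sensory neuron markers were abundant in every library, with 9 of 9 markers present and sums of 20570 to 33160 CPM in camptothecin ganglia and 23630 to 32510 CPM in vehicle ganglia. Macrophage markers (7 of 8 present) summed to 64.4 to 221.7 CPM in camptothecin ganglia and 80.0 to 188.1 CPM in vehicle ganglia. Red cell markers (6 of 7 present) summed to 3.84 to 12.9 CPM in camptothecin ganglia at 36 h and 35.4 to 93.9 CPM in vehicle ganglia at 36 h. Their part in the results below was not tested, and in a whole ganglion fewer cells of a type and less RNA per cell cannot be told apart.

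The genes were expressed at low to middling levels. Per kilobase of transcript, the mean over the 19 libraries was 7.04 ± 2.12 CPM per kb (SD) for Nr4a1-201, 4.57 ± 1.77 for Dusp1-204, 3.78 ± 0.58 for Btg2-201, 1.05 ± 0.39 for Ier2-201 and 1.01 ± 0.41 for Dusp1-203. It was 0.68 ± 0.48 CPM per kb for Nr4a2-205, 0.65 ± 0.47 for Egr3-201 and 0.63 ± 0.26 for Egr1-201. The median tested transcript stood at 2.74 CPM per kb. Nr4a1 was above Dusp1-204 in 16 of 19 libraries, and Btg2 was above Ier2 in 19 of 19. Neighbours elsewhere in this order changed places between libraries: Dusp1-204 was above Btg2 in 13 of 19, Ier2 above Dusp1-203 in 11, Dusp1-203 above Nr4a2-205 in 13, Nr4a2-205 above Egr3 in 10 and Egr3 above Egr1 in 7.

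Between replicates of 1 group, Btg2 and Nr4a1 varied least. The biological coefficient of variation from edgeR was 0.17 for Btg2 and 0.22 for Nr4a1, against 0.24 and 0.20 for all transcripts of their abundance. It was 0.34 for Ier2, 0.34 for Dusp1-203, 0.37 for Dusp1-204, 0.42 for Egr1 and 0.45 for Egr3. Nr4a2-205, with 0 to 24 counts a library, was below the abundance filter and was not tested in the fit across all transcripts, so 7 transcripts of 6 genes were tested.

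**Figure D2:**
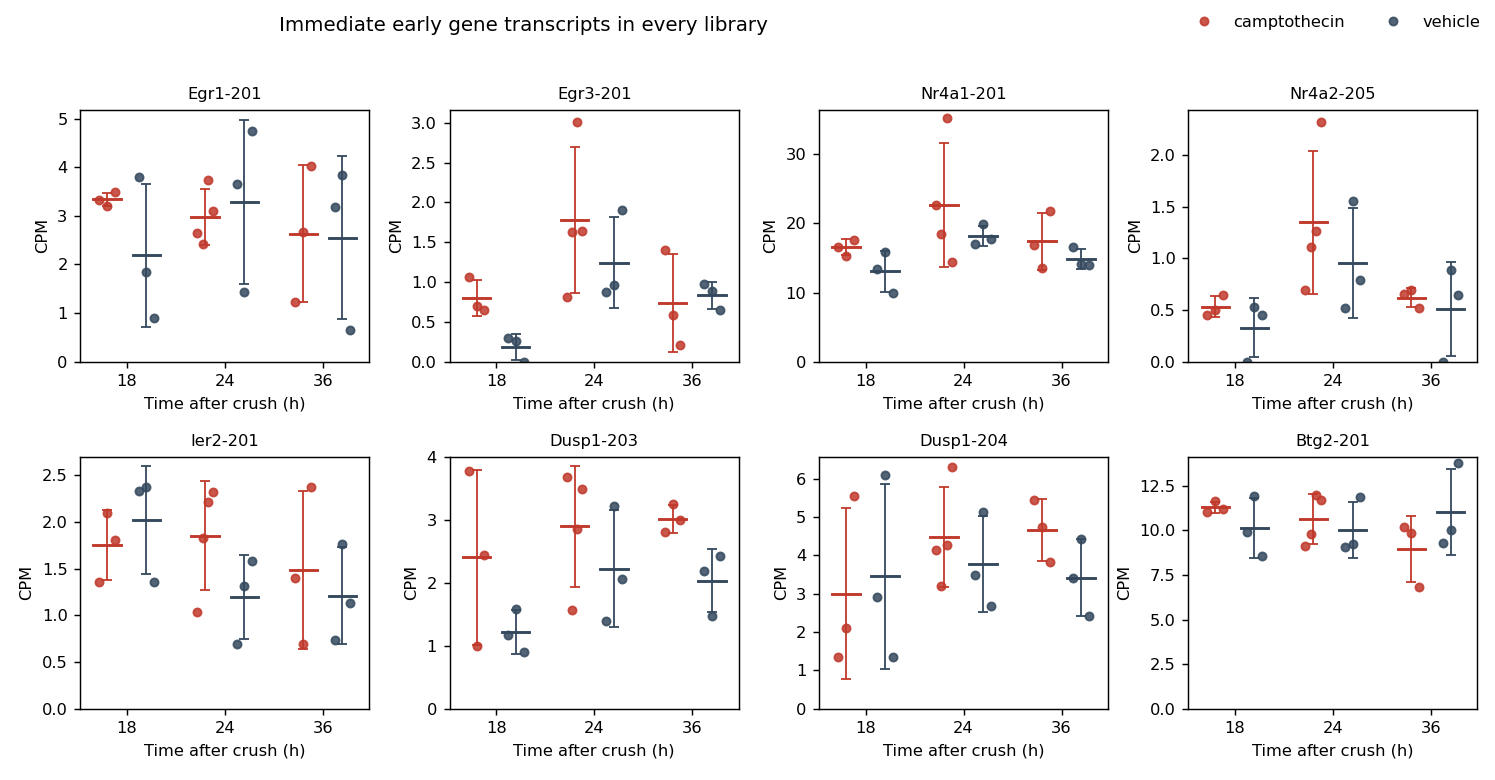
CPM of each of the 8 transcripts in every library, by hours after the crush, for camptothecin (red) and vehicle (dark). Points are libraries, horizontal lines are group means and bars are 1 SD, and the vertical axis of each panel has its own range starting at 0. Egr3 at 18 h and Dusp1-203 at 36 h are the panels in which all camptothecin points lie above all vehicle points.

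No tested transcript of these genes passed in camptothecin against vehicle ganglia. The count was 0 of 7 at 18 h, 0 of 7 at 24 h, 0 of 7 at 36 h and 0 of 7 in the effect averaged over the 3 times, by edgeR's quasi-likelihood test at a Benjamini-Hochberg adjusted p of 0.05 over 18606 transcripts. DESeq2 and limma on the deposited log2-scale values also called 0 in each. DESeq2 gave an adjusted p to only 10084, 7809, 13878 and 14258 transcripts at 18, 24 and 36 h and in the average. A transcript without one counted as not called, so the 0 of DESeq2 need not rest on all members. Of all transcripts tested by edgeR, 1.58% passed at 18 h, 0% at 24 h, 2.5% at 36 h and 10.3% in the average, beside which 0 of 7 is no result about these genes. The shares at single times rest on single libraries. The 294 transcripts called at 18 h became 1 without camptothecin replicate 3, 5 without replicate 2 and 19 without replicate 4, 12 and 46 without vehicle replicates 1 and 3, 157 to 180 without camptothecin 24 h replicate 3, vehicle 24 h replicate 3 or camptothecin 36 h replicate 3, and 723 without vehicle 36 h replicate 4. The count of 0 at 24 h became 92 without vehicle 36 h replicate 4 and 1 without camptothecin 24 h replicate 4. The 466 called at 36 h became 8, 258 and 199 without camptothecin replicates 1, 2 and 3, and 73, 1 and 1015 without vehicle replicates 2, 3 and 4. In the average the count of 1913 ranged from 1427 to 2503 without 1 library. With the GC trend described next removed, the counts were 24 at 18 h, 66 at 36 h and 836 in the average. At an unadjusted p of 0.05, 1 member was below the threshold at 18 h (Egr3), 0 at 24 h, 0 at 36 h and 1 in the average (Dusp1-203). Of all transcripts in the same edgeR tests, 14.9%, 7.98%, 15.65% and 23.6% were below it, so these counts are no result about the members either. In the authors' deposited table, 0 of the 8 transcripts had an adjusted p under 0.05 at any time, and the smallest were 0.238 at 18 h, 0.884 at 24 h and 0.569 at 36 h.

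Point estimates leaned upward. In the average effect 6 of the 7 log2 fold changes were positive, with a median of 0.25, beside a median of 0.01 and 51.2% positive over all transcripts. All 7 transcripts have a GC content above the median of 48.2%, and libraries differed in how counts depended on GC: the rank correlation of a library's deviation with GC was -0.08 to 0.32 in camptothecin libraries and -0.31 to 0.06 in vehicle libraries. At each time every camptothecin library lay above every vehicle library in this correlation. A technical trend and a drug effect that follows GC therefore cannot be told apart, and removing the trend can remove either, here and below. With that trend removed the median of the 7 was 0.09, with 6 still positive. These are descriptions of the set, and no test is attached to them.

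Nr4a1 was the most abundant of the genes. At 18 h it had 16.6, 15.3 and 17.7 CPM in camptothecin ganglia, against 13.4, 15.9 and 9.95 CPM in vehicle ganglia. At 24 h the values were 22.6, 18.5, 35.2 and 14.4 CPM in camptothecin ganglia, against 17.1, 19.9 and 17.7 CPM in vehicle ganglia. At 36 h they were 17.0, 13.6 and 21.8 CPM in camptothecin ganglia, against 16.6, 14.1 and 13.9 CPM in vehicle ganglia. The arms overlapped at each time, and the widest group was camptothecin at 24 h, where 1 library held 35.2 CPM. The log2 fold changes were 0.34 ± 0.27 (SE) at 18 h, 0.31 ± 0.24 at 24 h and 0.23 ± 0.26 at 36 h, with adjusted p of 0.636, 0.835 and 0.730. Averaged over the times, Nr4a1 was 1.23-fold in camptothecin relative to vehicle ganglia, with a 95% interval of 0.990 to 1.52 and an adjusted p of 0.235. With the GC trend removed the log2 value was 0.14 where it had been 0.30.

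Btg2 was the steadiest. It had 11.04, 11.6 and 11.2 CPM in camptothecin ganglia at 18 h, against 9.93, 11.9 and 8.59 CPM in vehicle ganglia. At 24 h it had 9.11, 9.80, 12.0 and 11.7 CPM in camptothecin ganglia, against 9.07, 9.21 and 11.9 CPM in vehicle ganglia. At 36 h it had 10.2, 9.85 and 6.82 CPM in camptothecin ganglia, against 9.27, 10.0 and 13.8 CPM in vehicle ganglia. Every library of the series lay between 6.82 and 13.8 CPM, and the arms overlapped at each time. The average log2 fold change was -0.02, with a 95% interval of -0.29 to 0.24 and an adjusted p of 0.943. The sign is not settled: it lay between 0.01 and 0.05 without any 1 of 6 libraries, which were camptothecin 24 h replicates 1 and 2, camptothecin 36 h replicate 3, vehicle 18 h replicate 3, vehicle 24 h replicate 3 and vehicle 36 h replicate 4.

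Egr3 had the widest gap between the arms at 18 h, at very low counts. It had 7, 7 and 5 counts in camptothecin ganglia, against 1, 1 and 0 counts in vehicle ganglia. In CPM these were 1.06, 0.70 and 0.64 in camptothecin ganglia, against 0.29, 0.26 and 0 in vehicle ganglia, and the 0 allows up to 0.68 CPM, taking 3 counts as the limit. With that library taken at 0 the arms did not overlap, as in 8.07% of all transcripts in this direction, but its limit lies above the lowest camptothecin library, so the counts leave an overlap possible. The log2 fold change was 2.09 ± 0.97 (SE), with an unadjusted p of 0.0425 and an adjusted p of 0.312 by edgeR. Summed over libraries, 19 against 2 counts gave a ratio of 4.78 per count sequenced, with an exact conditional interval of 1.15 to 42.3 that covers counting error only.

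At 24 h Egr3 had 0.81, 1.63, 3.01 and 1.65 CPM in camptothecin ganglia, against 0.87, 0.96 and 1.90 CPM in vehicle ganglia. At 36 h it had 1.40, 0.59 and 0.21 CPM in camptothecin ganglia, against 0.98, 0.88 and 0.65 CPM in vehicle ganglia. The arms overlapped at both times, and the log2 fold changes were 0.53 ± 0.59 and -0.15 ± 0.72, with adjusted p of 0.914 and 0.953. The value at 36 h was 0.28 without camptothecin replicate 3, the library with 2 counts. The effect at 24 h minus that at 18 h was -1.56 ± 1.14 and that at 36 h minus that at 18 h was -2.23 ± 1.22 on the log2 scale, with adjusted p of 0.9999 and 0.986. The difference of the gap between times was therefore tested and did not pass, and the interval of the second, -4.77 to 0.30, is wide. Of all transcripts, 0% and 0.0107% passed in these 2 tests of a changing drug effect, and of the 7 members 0 and 0 passed, with 0 and 0 under an unadjusted p of 0.05. The shares of all transcripts under that unadjusted p were 4.22% and 4.95% by edgeR.

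Egr1, widely used as a marker of recent neuronal activity, overlapped between the arms at each time. It had 3.33, 3.21 and 3.48 CPM in camptothecin ganglia at 18 h, against 3.80, 1.85 and 0.90 CPM in vehicle ganglia. At 24 h it had 2.65, 2.42, 3.73 and 3.10 CPM in camptothecin ganglia, against 3.66, 1.44 and 4.74 CPM in vehicle ganglia. At 36 h it had 1.22, 2.66 and 4.03 CPM in camptothecin ganglia, against 3.17, 3.83 and 0.65 CPM in vehicle ganglia. The spread within an arm reached several-fold, from 4 to 13 counts in vehicle ganglia at 36 h. The log2 fold changes were 0.64 ± 0.59 at 18 h, -0.12 ± 0.50 at 24 h and 0.12 ± 0.58 at 36 h, with adjusted p of 0.702, 0.981 and 0.947. The sign at 24 h turned without vehicle replicate 3 (0.25), and that at 36 h turned without vehicle replicate 4 (-0.41), without camptothecin replicate 3 (-0.32) and with the GC trend removed (-0.07). Averaged over the times the value was 0.21, with a 95% interval of -0.46 to 0.88.

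Ier2 was low in all libraries, at 3 to 28 counts. It averaged 1.76 ± 0.37 CPM in camptothecin and 2.02 ± 0.58 CPM in vehicle ganglia at 18 h (SD, n = 3 each). At 24 h it averaged 1.85 ± 0.58 CPM in camptothecin ganglia (n = 4) and 1.198 ± 0.45 CPM in vehicle ganglia (n = 3), and at 36 h 1.49 ± 0.85 and 1.21 ± 0.52 CPM in camptothecin and vehicle ganglia (n = 3 each). The arms overlapped at every time. The log2 fold changes were -0.18 ± 0.53, 0.62 ± 0.48 and 0.32 ± 0.55 at 18, 24 and 36 h, with adjusted p of 0.929, 0.847 and 0.832, and the last was -0.18 without camptothecin 36 h replicate 3.

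The retained-intron transcripts of Dusp1 are given one by one. Dusp1-203 had 3.78, 1.00 and 2.45 CPM in camptothecin ganglia at 18 h, against 1.17, 1.59 and 0.90 CPM in vehicle ganglia. At 24 h it had 3.69, 1.57, 2.85 and 3.49 CPM in camptothecin ganglia, against 1.40, 3.23 and 2.06 CPM in vehicle ganglia. At 36 h it had 2.81, 3.25 and 2.996 CPM in camptothecin ganglia, against 2.20, 1.47 and 2.43 CPM in vehicle ganglia. The arms overlapped at 18 and 24 h and did not overlap at 36 h, as in 9.6% of all transcripts in this direction. Averaged over the times, Dusp1-203 was 1.53-fold in camptothecin relative to vehicle ganglia (95% interval 1.03 to 2.28), with an unadjusted p of 0.0378 and an adjusted p of 0.178 by edgeR. The log2 value was 0.61, and 0.50 with the GC trend removed.

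Dusp1-204 averaged 3.003 ± 2.23, 4.48 ± 1.30 and 4.66 ± 0.81 CPM in camptothecin ganglia at 18, 24 and 36 h (SD), and 3.45 ± 2.41, 3.77 ± 1.25 and 3.42 ± 0.99 CPM in vehicle ganglia. Libraries overlapped at each time. Its average log2 fold change was 0.17, with a 95% interval of -0.40 to 0.75 and an adjusted p of 0.760, and it was -0.08 without camptothecin 18 h replicate 4. At 18 h the value was -0.18 and turned positive without camptothecin replicate 2 (0.14), camptothecin replicate 3 (0.03) or vehicle replicate 3 (0.56). With the counts of both transcripts added, Dusp1 gave an average log2 fold change of 0.32 ± 0.22 (SE) and an adjusted p of 0.368.

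Nr4a2-205 was close to the limit of counting. It had 3, 5 and 5 counts in camptothecin ganglia at 18 h, against 0, 2 and 2 counts in vehicle ganglia. At 24 h it had 6, 17, 16 and 24 counts in camptothecin ganglia, against 3, 13 and 5 counts in vehicle ganglia, and at 36 h 7, 7 and 5 in camptothecin against 0, 3 and 4 in vehicle ganglia. In CPM the arms overlapped at each time. The libraries at 0 allow up to 0.83 CPM at 18 h and 0.67 CPM at 36 h and the first limit is above every other library of 18 h. Fitted without the abundance filter, its average log2 fold change was 0.45 ± 0.45 (SE) with an adjusted p of 0.596 by edgeR.

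**Figure D3:**
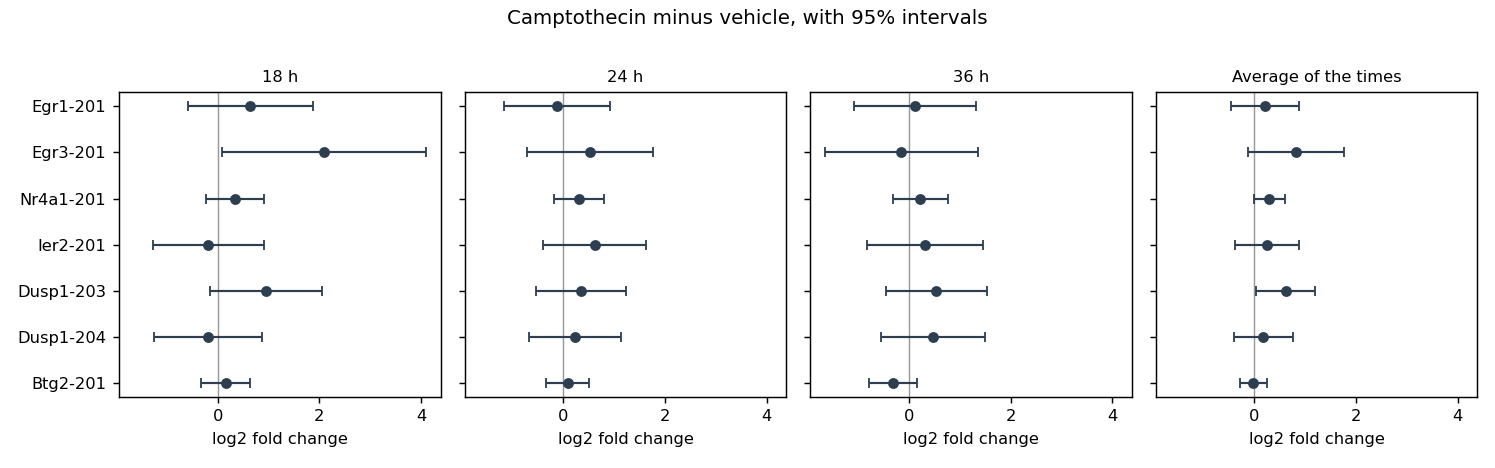
Log2 fold change of the 7 tested transcripts, camptothecin minus vehicle, at 18, 24 and 36 h and averaged over the times; points are edgeR estimates and bars their 95% intervals, not adjusted for the number of transcripts. The intervals of Egr3 at 18 h and of Dusp1-203 in the average lie above 0, and all others include 0.

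Later times were then set against 18 h within each arm. In vehicle ganglia 0 of 7 transcripts passed at 24 h against 18 h and 0 of 7 at 36 h against 18 h, with 0.231% and 1.44% of all transcripts passing. In camptothecin ganglia the counts were 0 of 7 and 0 of 7, with 0% and 0.511% of all passing. Without 1 library these calls over all transcripts ranged from 5 to 122 where there had been 43 and from 151 to 294 where there had been 268 in vehicle ganglia, and from 36 to 160 where there had been 95 at 36 h in camptothecin ganglia. All these are edgeR counts, and DESeq2 and limma also called 0 members. DESeq2 gave an adjusted p to only 10084 and 11602 transcripts in the 2 vehicle comparisons and 10084 in camptothecin ganglia at 36 h. Members without one counted as not called. At an unadjusted p of 0.05, Egr3 was below the threshold in both vehicle comparisons, and 0 members were in either camptothecin comparison. Of all transcripts in the same edgeR tests, 12.3% and 11.8% were below it in vehicle ganglia at 24 and 36 h. In camptothecin ganglia the shares were 5.05% and 11.2%. Both comparisons within an arm share the same 18 h libraries.

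Egr3 in vehicle ganglia had 0.87, 0.96 and 1.90 CPM at 24 h, against 0.29, 0.26 and 0 CPM at 18 h. The 24 h and 18 h libraries did not overlap, and 8.36% of all transcripts had all 24 h libraries higher. The log2 difference was 2.72 ± 0.94 (SE), with an unadjusted p of 0.00857 and an adjusted p of 0.240. At 36 h against 18 h it was 2.14 ± 1.01, with an unadjusted p of 0.0458 and an adjusted p of 0.410. The libraries of 36 h and 18 h did not overlap with the vehicle 18 h library taken at 0, as in 7.86% of all transcripts, but its limit of 0.68 CPM lies above the lowest library of 36 h (0.65 CPM). Every one of these differences rests on the same 2 counts of Egr3 in vehicle ganglia at 18 h, as the drug comparison at 18 h does. In camptothecin ganglia the log2 differences were 1.16 ± 0.61 at 24 h and -0.10 ± 0.68 at 36 h against 18 h, with overlapping libraries and adjusted p of 0.962 and 0.983. The value at 36 h turned positive without camptothecin 18 h replicate 2 (0.13), camptothecin 36 h replicate 2 (0.04) or camptothecin 36 h replicate 3 (0.33).

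Nr4a1 had its highest group mean at 24 h in both arms. The 3 vehicle libraries at 24 h, 17.1 to 19.9 CPM, all lay above those at 18 h, 9.95 to 15.9 CPM, the direction in which 8.36% of all transcripts did so. The log2 difference was 0.49 ± 0.27 in vehicle ganglia and 0.46 ± 0.24 in camptothecin ganglia at 24 h against 18 h, with adjusted p of 0.492 and 0.962. At 36 h against 18 h it was 0.19 ± 0.28 in vehicle ganglia and 0.08 ± 0.25 in camptothecin ganglia, and the value for camptothecin was -0.11 without camptothecin 36 h replicate 3 and -0.02 with the GC trend removed. Btg2 in camptothecin ganglia had 10.2, 9.85 and 6.82 CPM at 36 h, all below its 11.04, 11.6 and 11.2 CPM at 18 h, as in 8.75% of all transcripts. Its log2 difference was -0.33 ± 0.22, with an adjusted p of 0.625.

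Deviations of log2 CPM from the mean of their group were then correlated across the 19 libraries. Differences between arms and times therefore do not enter. Of 15 pairs of the 6 tested genes, the highest correlation of these deviations was that of Egr3 and Btg2. Pearson r was 0.62 and Spearman rho 0.55, with p of 0.0259 and 0.041 by permutation within groups. The Pearson r was the higher in size. Pearson r was 0.55 without the 2 libraries whose Egr3 deviation lay farthest from its median. With adjustment over the 15 pairs, 0 passed, and the smallest adjusted p was 0.388 for Pearson and 0.615 for Spearman. As a description, the transcripts most like the mean of the members over the 19 libraries, among 9092 of at least 5 CPM, were Timm8b (Pearson r 0.76), Lsm6 (0.75), Cmip (0.73), Mapk3 (0.73), Morf4l1 (0.71), Kti12 (0.70), Josd1 (0.70) and Vgf (0.70). Here differences between groups do enter. Spearman rho was lower, from 0.66 for Timm8b to 0.36 for Vgf. The members' mean, on a scale standardised per gene, was -1.56 in vehicle 18 h replicate 4 and 1.34 in camptothecin 24 h replicate 3. These transcripts are the highest of many, and no test is attached to them.

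Genes around the members were read from 5 lists. Of 25 other immediate early genes measured in 30 transcripts, 3 transcripts rose and 3 fell in camptothecin relative to vehicle ganglia averaged over the times, beside 2.59% higher and 7.69% lower of all transcripts, the shares beside which each of the 5 lists is read. Ier5, a partner in the heat shock response, rose by a log2 value of 0.48 (adjusted p 0.00642). Mcl1, an anti-apoptotic BCL2 relative, fell by 0.36 on the log2 scale (adjusted p 0.00888). Homer1, a scaffold of the synapse, fell in 2 transcripts by 0.62 and 0.73 on the log2 scale (adjusted p 0.00281 and 0.0104). Both Homer1 transcripts are poor in GC, at 36.9% and 37.8%, and with the GC trend removed the values were -0.12 and -0.27 with adjusted p of 0.729 and 0.442. Homer1-204 also fell at 36 h alone (adjusted p 0.0295), a call lost without any library of that time but vehicle replicate 4 (0.0629 to 0.175). With the GC trend removed that value was -0.38 (adjusted p 0.599), and limma on the deposited log2-scale values gave an adjusted p of 0.055.

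Of 8 transcripts of AP-1 and ATF genes, 2 rose and 0 fell in the averaged drug effect. Fosl2, an AP-1 subunit of the FOS family, rose by a log2 value of 0.41 (adjusted p 0.000556). Atf3, an injury-induced factor of sensory neurons, averaged 518.6 ± 24.7 CPM in camptothecin and 344.4 ± 59.4 CPM in vehicle ganglia at 18 h (SD, n = 3 each), and rose there by a log2 value of 0.59 (adjusted p 0.0323). That call was lost without any 1 of the 6 libraries of 18 h, with adjusted p of 0.0544 to 0.113, and with the GC trend removed (0.116). Averaged over the times Atf3 rose by a log2 value of 0.25 (adjusted p 0.0317), and this was lost without any 1 of 8 libraries (adjusted p 0.054 to 0.0753), which were camptothecin 18 h replicates 2 and 3, camptothecin 36 h replicates 1 and 2, vehicle 18 h replicate 4, vehicle 24 h replicates 1 and 3 and vehicle 36 h replicate 3. It was also lost with the GC trend removed (log2 value 0.16, adjusted p 0.275). Egr3 and Atf3 both had their lowest group mean in vehicle ganglia at 18 h. So did Nr4a1, Egr1, Fosl2 and Ier5, among others, while Ier2 and Btg2 did not. This minimum is therefore not particular to Egr3 and Atf3, and a link between them was not tested.

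Of 18 transcripts of feedback partners, 0 rose and 2 fell in the averaged effect. Nab1, the corepressor that binds EGR1 and EGR3 and holds their activity down, averaged 93.4 ± 9.7, 89.3 ± 19.5 and 92.6 ± 15.7 CPM in camptothecin ganglia at 18, 24 and 36 h, and 184.1 ± 36.18, 128.2 ± 31.8 and 175.7 ± 61.0 CPM in vehicle ganglia (SD). It fell by 0.81 on the log2 scale (adjusted p 0.000352), by 0.78 with the GC trend removed (adjusted p 0.0017), and in all 19 fits without 1 library (adjusted p at most 0.00166). Spred1, an inhibitor of RAS to MAP kinase signalling, fell by 0.33 on the log2 scale (adjusted p 0.0332), and the value was -0.06 with the GC trend removed (adjusted p 0.817) and the adjusted p 0.0543 with limma. Its call was also lost in 11 of the 19 fits without 1 library, with adjusted p of 0.0526 to 0.0887. Those 11 left out camptothecin 18 h replicates 2 and 4, camptothecin 24 h replicates 2 and 3, camptothecin 36 h replicates 1 and 2, vehicle 18 h replicates 1 and 3, vehicle 24 h replicate 1 or vehicle 36 h replicates 2 and 3. At single times Nab1 passed at 18 h (adjusted p 0.0406) and at 36 h (0.0385), and neither call held with the GC trend removed (0.117 and 0.111). The call at 36 h did not hold with limma either (0.0568). The first call was lost without any library of 18 h but vehicle replicate 4, without camptothecin 24 h replicate 3, vehicle 24 h replicate 3 or camptothecin 36 h replicates 1 or 3 (0.0516 to 0.156). The second was lost without any library of 36 h but vehicle replicate 4, and without camptothecin 18 h replicate 2, vehicle 18 h replicate 1 or vehicle 24 h replicate 3 (0.0506 to 0.194).

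Of 59 transcripts of upstream factors and kinases, 2 rose and 6 fell in the averaged effect, beside 2.59% and 7.69% of all transcripts. Atf1, a relative of CREB that binds the same element, averaged 79.6 ± 8.0, 67.8 ± 14.8 and 78.9 ± 18.26 CPM in camptothecin ganglia at 18, 24 and 36 h, and 155.2 ± 37.1, 95.8 ± 21.2 and 154.7 ± 50.2 CPM in vehicle ganglia (SD). It fell by 0.81 on the log2 scale (adjusted p 0.00036), with an adjusted p of at most 0.00166 in all 19 fits without 1 library and of 0.00311 with the GC trend removed. It also passed at 18 h (0.0434) and at 36 h (0.0299), and neither call held with the GC trend removed (0.152 and 0.124). The call at 18 h was lost in 10 fits without 1 library (0.0528 to 0.17), those without any library of 18 h but vehicle replicate 4, camptothecin 24 h replicates 1 or 3, vehicle 24 h replicate 3, camptothecin 36 h replicate 3 or vehicle 36 h replicate 2. The call at 36 h was lost without any library of that time but vehicle replicate 4 (0.0604 to 0.217). Mapk8, the kinase JNK1, fell in 2 transcripts by 1.30 and 0.46 on the log2 scale (adjusted p 0.00267 and 0.00397), and neither passed with the GC trend removed (adjusted p 0.0638 and 0.549). Of 14 transcripts of partners of the NR4A, Arc and EGR proteins, 0 rose and 1 fell, which was Cnot6, a deadenylase subunit, by 0.60 on the log2 scale (adjusted p 0.00209, and 0.314 with the GC trend removed).

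Over time, Elk3, a partner of serum response factor, rose in both arms. It averaged 30.8 ± 1.4 CPM at 36 h and 14.7 ± 1.0 CPM at 18 h in camptothecin ganglia, and 28.3 ± 2.9 CPM at 36 h and 12.2 ± 1.6 CPM at 18 h in vehicle ganglia (SD, n = 3 each). The log2 differences were 1.07 and 1.21, with adjusted p of 0.00432 and 0.00145, and both passed in all 19 fits without 1 library. Rps6ka5, the kinase MSK1 that phosphorylates CREB, fell at 36 h against 18 h in vehicle ganglia by 1.01 on the log2 scale (adjusted p 0.00268). Without all libraries numbered 4 the adjusted p was 0.0485. In camptothecin ganglia Rps6ka5 was also lower, at 34.6 ± 4.6 CPM at 36 h and 55.8 ± 12.7 CPM at 18 h (SD), but was not called. Sik1, an immediate early kinase of the CREB pathway, had a log2 difference of 1.05 at 24 h against 18 h in vehicle ganglia (adjusted p 0.0491), a call lost in 13 of the 19 fits without 1 library (adjusted p 0.0527 to 0.226). It held without any of the 3 vehicle libraries of 36 h and without camptothecin 24 h replicates 1, 2 or 4, and was lost without any other library. It was also lost with the replicate number as a block (0.0593), with the GC trend removed (0.0913) and without all libraries numbered 4 (0.074). Mkl2 (plotted as Mrtfb), a coactivator of serum response factor, had a log2 difference of 0.64 at 36 h against 18 h in vehicle ganglia (adjusted p 0.0492), lost in 14 fits (0.0566 to 0.164). It held without camptothecin 18 h replicates 2 or 4, camptothecin 24 h replicates 1 or 4 or camptothecin 36 h replicate 2 alone. It was also lost with no abundance filter (0.0537), with the replicate block (0.0805), with the GC trend removed (0.0584) and without all libraries numbered 4 (0.192). Atf3 was higher at 36 h than at 18 h in vehicle ganglia by a log2 value of 0.54 (adjusted p 0.0374), a call lost without camptothecin 18 h replicate 2, camptothecin 36 h replicate 1, vehicle 18 h replicate 4 or any vehicle library of 36 h (0.0514 to 0.199), with the GC trend removed (0.0632) and without all libraries numbered 4 (0.267). Homer1-204 (ENSMUST00000102752) fell by 1.11 on the log2 scale at 36 h against 18 h in camptothecin ganglia (adjusted p 0.0232), a call lost without any of those 6 libraries (0.0544 to 0.185), with the GC trend removed (0.134) and with limma (0.0566). Markers of some cell types moved with these time comparisons. In camptothecin ganglia macrophage markers summed to 159.8 to 221.7 CPM at 36 h and 64.4 to 94.2 CPM at 18 h, with 2 of 7 transcripts called higher, and sensory neuron markers to 20570 to 23780 CPM at 36 h and 28590 to 33160 CPM at 18 h, with 3 of 14 called lower. In vehicle ganglia macrophage markers summed to 111.0 to 188.1 CPM at 36 h and 80.0 to 105.4 CPM at 18 h, with 0 of 7 called, and neuron markers to 23630 to 27750 CPM at 36 h and 27880 to 28900 CPM at 18 h, with 1 of 14 called higher and 1 lower. Satellite glia markers summed to 1530 to 1756 CPM at 36 h and 1104 to 1225 CPM at 18 h in camptothecin ganglia. In vehicle ganglia these sums were 1356 to 1841 and 940.9 to 1230 CPM, and 1 of 7 transcripts was called higher in each arm. Fibroblast markers summed to 1168 to 1525 CPM at 36 h and 738.5 to 907 CPM at 18 h in camptothecin ganglia. There 2 of 10 transcripts were called higher. In vehicle ganglia they summed to 851.2 to 1167 and 707.2 to 1134 CPM, with 0 of 10 called. Of all 18606 transcripts, 67 were called higher and 28 lower at 36 h against 18 h in camptothecin ganglia. In vehicle ganglia these counts were 188 and 80. The part of these cells in the changes of Elk3, Rps6ka5, Sik1, Mkl2, Atf3 and Homer1 was not tested.

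**Figure D4:**
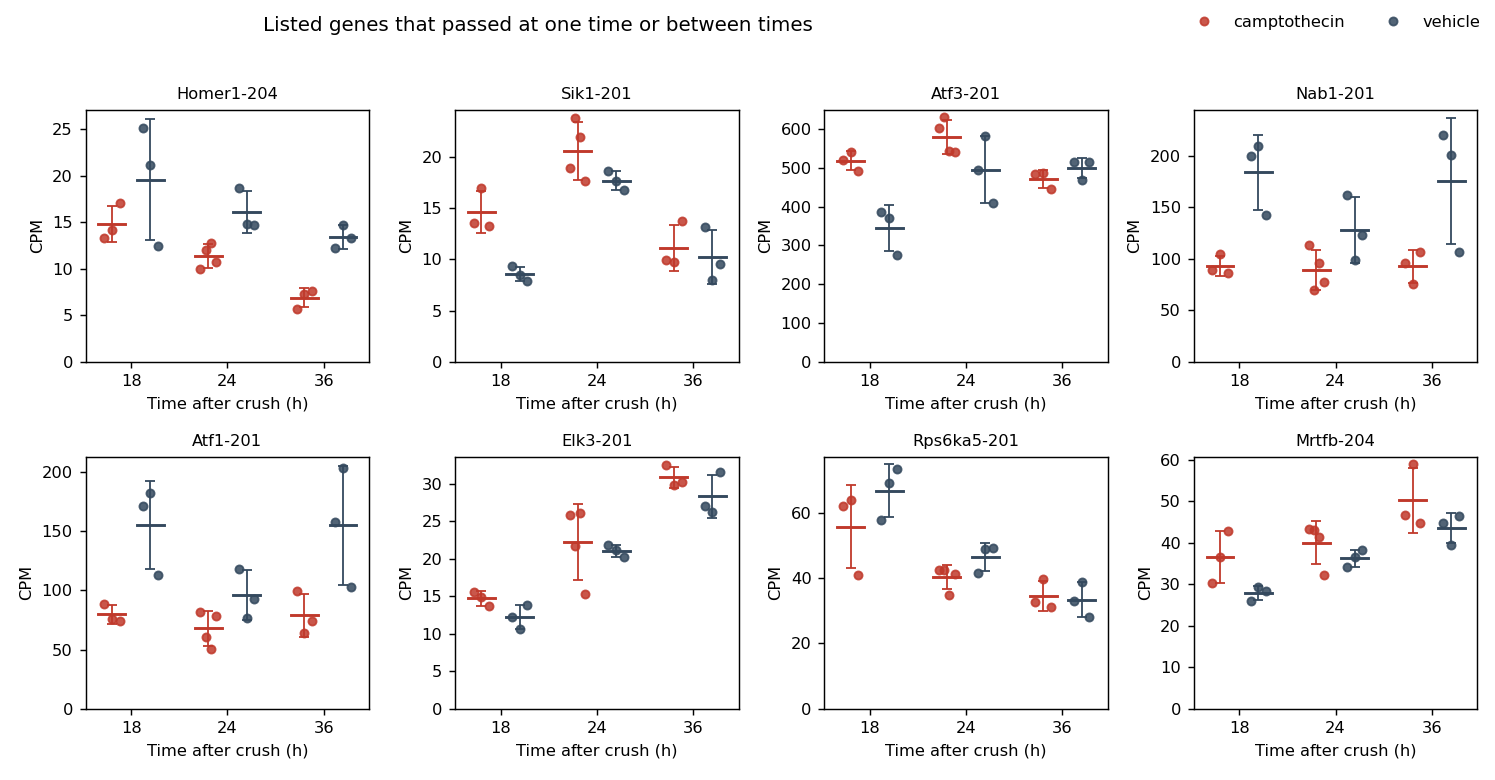
CPM in every library of 8 listed genes that passed at 1 time or between times, by hours after the crush, for camptothecin (red) and vehicle (dark). Points are libraries, lines group means and bars 1 SD. Nab1-201 and Atf1-201 have lower means in camptothecin than in vehicle ganglia at each time, and Elk3-201 is higher at 36 h than at 18 h in both arms.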

How the data were processed

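RNA of whole dorsal root ganglia was amplified (Nugen Ovation V2) and sequenced from both ends, per the labels' protocols, which also speak of immunoprecipitated or flow-through RNA. The deposited table holds raw counts per Ensembl transcript and log2-scale variance-stabilised values for 19 libraries, with the authors' limma log2 fold changes, p-values and adjusted p-values. CASAVA 1.8.2, limma and mm10 are named in the submitters' processing notes; for aligner, counter and annotation version a name is not given in the sources used here. Column letters have no legend. They were assigned to arms because the deposited contrasts equalled the difference of those column means to within 8.7e-14 at 18 h, against 4.32 with the letters exchanged. Rows without a symbol held 0.501 to 0.568% of a library's counts and stayed in the totals.

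Counts were fitted with edgeR 4.0.16 in R 4.3.3 (filterByExpr with min.count 10 and min.total.count 15, TMM, 6 group means over 19 libraries, quasi-likelihood test), which kept 18606 of 19571 transcripts. P-values were adjusted by Benjamini-Hochberg over all of them, with a threshold of 0.05. Separate animals are not stated in the labels, and p-values then reflect only how far these samples differ, which can be technical spread. Alternatives were DESeq2 1.42.0, RLE scaling, no filter, counts per gene, GC correction, the replicate number as a block, leaving out libraries, and limma 3.58.1 on the deposited log2-scale values, the last chosen after seeing the data. All members are named; from each list up to 4 passing transcripts with the smallest p per comparison are named, and the 8 transcripts most like the members. A listed transcript that this rule names is not reported here. Members and lists were chosen with earlier results of these data known. Intervals for counts and limits for a count of 0 cover counting error only.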

Additional observations from a re-analysis of the deposited data

How the results depend on the processing

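The number of transcripts of these genes that passed was 0 in each of the 10 comparisons under all 9 other settings and all 19 fits without 1 library, and the smallest adjusted p in any of them was 0.0692. Under DESeq2, a transcript that was given no adjusted p counted as not passing. Of 38 fold changes of these genes, 11 changed sign somewhere, in 12 of 334 values under other settings and 19 of 722 without 1 library. The 38 were the drug effects of all tested transcripts, the time differences of Egr3 and Nr4a1 and the changing drug effect of Egr3. Time differences of the other genes were not followed in this way. The cause of the sign changes was not tested. Correlations of same-numbered libraries' deviations were -0.21 to 0.226 over 7 pairs, and 6 of 14 libraries correlated best with their own number. These values do not settle whether replicate numbers pair the libraries, which the labels do not state. Over all transcripts, the replicate block gave 435 calls at 18 h, 845 at 36 h and 2410 in the average. The main fit gave 294, 466 and 1913. With the block, still 0 transcripts of these genes passed. Egr1 then gave 0.070 at 24 h and -0.0051 at 36 h, and Nr4a1 gave -0.042 at 36 h against 18 h in camptothecin ganglia. With GC correction Egr1 at 36 h gave -0.068 and Nr4a1 at 36 h against 18 h gave -0.024, and with GC correction and the replicate block Egr1 gave -0.18 and Nr4a1 -0.075 at 36 h and -0.14 at 36 h against 18 h. Without all libraries numbered 4, Egr1 gave -0.40 at 36 h and -0.10 in the average, Dusp1-204 -0.34 and Btg2 0.011 in the average. Without 1 library each, Dusp1-204 ranged from -0.95 to 0.56 at 18 h and from -0.081 to 0.42 in the average, Egr1 from -0.50 to 0.25 at 24 h and from -0.41 to 0.54 at 36 h, Egr3 from -1.004 to 0.28 at 36 h, Ier2 from -0.18 to 0.66 at 36 h and Btg2 from -0.058 to 0.048 in the average. In camptothecin ganglia at 36 h against 18 h, Egr3 ranged from -0.96 to 0.33 and Nr4a1 from -0.11 to 0.23. Over all transcripts, DESeq2 called 959 at 18 h, 980 at 36 h, 121 at 24 h, 352 and 573 in vehicle ganglia at 24 and 36 h against 18 h and 387 in camptothecin ganglia at 36 h against 18 h, where edgeR called 294, 466, 0, 43, 268 and 95. Low counts limit the precision of Egr3, with 2 counts in vehicle ganglia at 18 h and 11 at 36 h, and of Nr4a2-205, with 4 at 18 h.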
